A study of Mus musculus with 6 samples.

Results

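The MS4A genes encode small proteins that span the membrane 4 times, and their mouse copies sit together on chromosome 19. The 8 genes described here (Ms4a4a, Ms4a4b, Ms4a4c, Ms4a6b, Ms4a6c, Ms4a6d, Ms4a7 and Ms4a14) were chosen by symbol from the 55401 Ensembl identifiers of the count matrix, and they leave aside Ms4a1, the B cell gene also called Cd20. Each was compared between microglia of MRL/lpr mice, which carry the lpr mutation of Fas and develop lupus, and microglia of MRL/mpj mice, the matching strain without that mutation. Cells were taken from the brains of untreated mice aged 6 weeks, enriched by Percoll centrifugation and picked with magnetic beads against CD11b, a protein that microglia share with other myeloid cells and with NK cells. There were 3 libraries per strain, with 45481609 to 49846634 counts each. The study counts its replicates in mice, but the labels do not tie a library to an animal, so the p-values measure the spread between these libraries.

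MS4A proteins act beside other receptors of the same cell. MS4A4A lies in the membrane of macrophages next to Dectin-1, the product of Clec7a. Ms4a4b is best known from T cells and NK cells, where its product associates with the receptor encoded by Tnfrsf18. In the human brain, variants in the MS4A cluster are linked to soluble TREM2, a shed form of a microglial receptor. Ms4a7 is widely used to tell macrophages of the brain's borders from microglia, Ms4a6c marks monocytes, and Ms4a4c often stands among the genes that interferon raises.

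Fas itself had 461, 282 and 298 counts in MRL/lpr against 426, 432 and 362 in MRL/mpj (log2 fold change -0.06, standard error, SE, 0.21, adjusted p = 0.887 from edgeR). These counts overlapped and did not tell the strains apart. Whether the Fas transcripts carried the lpr mutation was not tested, so Fas gave no check in favour of the strain labels. Xist, the RNA that silences an X chromosome in female cells, had 8886 to 11319 counts in MRL/lpr and 27 to 38 in MRL/mpj. The Y-linked genes Ddx3y, Eif2s3y, Kdm5d and Uty together had 8408 to 15046 counts in each of the 6 libraries. The study's methods describe female mice, which the Y-linked counts in every library and the near absence of Xist in MRL/mpj go against. A difference between the sexes of the animals and a difference between the strains cannot be told apart here. MRL/lpr replicate 3 stood apart from the other libraries, and a single gene took 6.38% of its counts. Microglia markers were abundant in every library, and the 12 genes of that list summed to 34820 to 44450 CPM (counts scaled to a common library size). Counts piled up at 4 (1234 genes had 4 counts in MRL/lpr replicate 1, against 377 with 3 and 254 with 5), so low counts rest on fewer reads than their size gives.

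By name, most of the genes fall into a Ms4a4 branch and a Ms4a6 branch, and Ms4a7 and Ms4a14 are in neither. Likeness within a branch varied, and the coding sequence of Ms4a4a was 59.9% identical to that of Ms4a4c. The coding sequences of Ms4a4b and Ms4a4c were 91.7% identical, those of Ms4a6b and Ms4a6d 80.1%, those of Ms4a6b and Ms4a6c 74.7% and those of Ms4a6c and Ms4a6d 67.2%. The 250 bases before the transcription start are shown for the genes that were higher in MRL/lpr microglia, because these windows share a run of bases within a branch. They are on the plus strand of GRCm38.p6 at chr19:11518309-11518558 for Ms4a6b, chr19:11469118-11469367 for Ms4a6c, chr19:11443308-11443557 for Ms4a4b and chr19:11407411-11407660 for Ms4a4c, written 5′ to 3′ from RefSeq. Capitals mark the longest run that both genes of a pair share.
Ms4a6b: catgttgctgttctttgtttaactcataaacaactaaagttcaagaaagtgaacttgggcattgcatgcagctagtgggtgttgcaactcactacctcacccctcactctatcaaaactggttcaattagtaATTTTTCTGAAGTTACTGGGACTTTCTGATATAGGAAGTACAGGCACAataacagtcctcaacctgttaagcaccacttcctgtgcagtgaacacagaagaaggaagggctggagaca
Ms4a6c: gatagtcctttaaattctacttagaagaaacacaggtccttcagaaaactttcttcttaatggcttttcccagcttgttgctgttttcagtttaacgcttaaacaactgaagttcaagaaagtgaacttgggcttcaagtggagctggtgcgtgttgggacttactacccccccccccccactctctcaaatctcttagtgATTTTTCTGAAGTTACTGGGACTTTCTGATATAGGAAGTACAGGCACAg
Ms4a4b: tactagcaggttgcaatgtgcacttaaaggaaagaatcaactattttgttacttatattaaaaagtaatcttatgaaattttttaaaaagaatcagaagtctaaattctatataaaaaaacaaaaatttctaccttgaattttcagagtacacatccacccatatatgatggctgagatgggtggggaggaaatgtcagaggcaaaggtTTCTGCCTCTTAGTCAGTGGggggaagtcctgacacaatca
Ms4a4c: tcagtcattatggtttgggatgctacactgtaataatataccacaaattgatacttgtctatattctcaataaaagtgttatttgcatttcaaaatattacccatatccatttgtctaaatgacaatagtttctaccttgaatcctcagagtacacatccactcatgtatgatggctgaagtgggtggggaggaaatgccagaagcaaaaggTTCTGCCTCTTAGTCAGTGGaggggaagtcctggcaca
The run shared by Ms4a6b and Ms4a6c was 48 bases long, and it began 118 bases before the start of Ms4a6b and 49 bases before that of Ms4a6c. The run shared by Ms4a4b and Ms4a4c was 20 bases long and began 41 and 38 bases before the start. No other gene of the RefSeq promoter table held either exact run in its window. Only these pairs were compared for their longest run. The window of Gm8369, a neighbouring gene described below, holds a longer run in common with that of Ms4a4c, so likeness of windows is not particular to the pair. Over the whole window, Ms4a4b and Ms4a4c were 68.8% identical and Ms4a6b and Ms4a6c 45.8%, counting gaps as differences. Windows of unrelated genes were not aligned for comparison. The windows belong to 1 RefSeq start per gene, which for Ms4a4c and Ms4a6b lies inside the longer span that the gene annotation gives.

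A set of 3 short motifs was searched on both strands of these windows, and matches could overlap. The interferon-stimulated response element, written GAAA, any 2 bases, GAAA, was in 2.98% of the 32851 promoters of the table and in none of the windows of the 7 members found there. The interferon gamma activated site, TTCNNNGAA, was in 7.02% of all promoters and likewise in none of these windows. The PU box, GAGGAA, which is the core that the myeloid factor PU.1 binds, was in 23.3% of all promoters and in the windows of Ms4a4b, Ms4a4c and Ms4a14, at 64, 61 and 84 bases before the start. A match is a string of letters and not a measured site.

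Of the 8 genes, 4 were higher in MRL/lpr microglia, 3 gave no call and 1 had too few counts to be tested. Higher means that the quasi-likelihood test of edgeR gave a Benjamini-Hochberg adjusted p below 0.05 over the 19554 genes tested, where 11.1% of all genes were higher and 9.06% lower. The genes were Ms4a4b, Ms4a4c, Ms4a6b and Ms4a6c, and each also passed a log2 fold change of 1, as did 4.67% of all genes tested. All MRL/lpr libraries lay above all MRL/mpj libraries in 6 of the 8, against 19.6% of all genes tested. The median log2 fold change of the 7 members tested was 1.22, and that of all genes tested was -0.01. In bulk libraries of this kind, more cells that carry a transcript and more of it in each cell cannot be told apart.

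**Figure D1:**
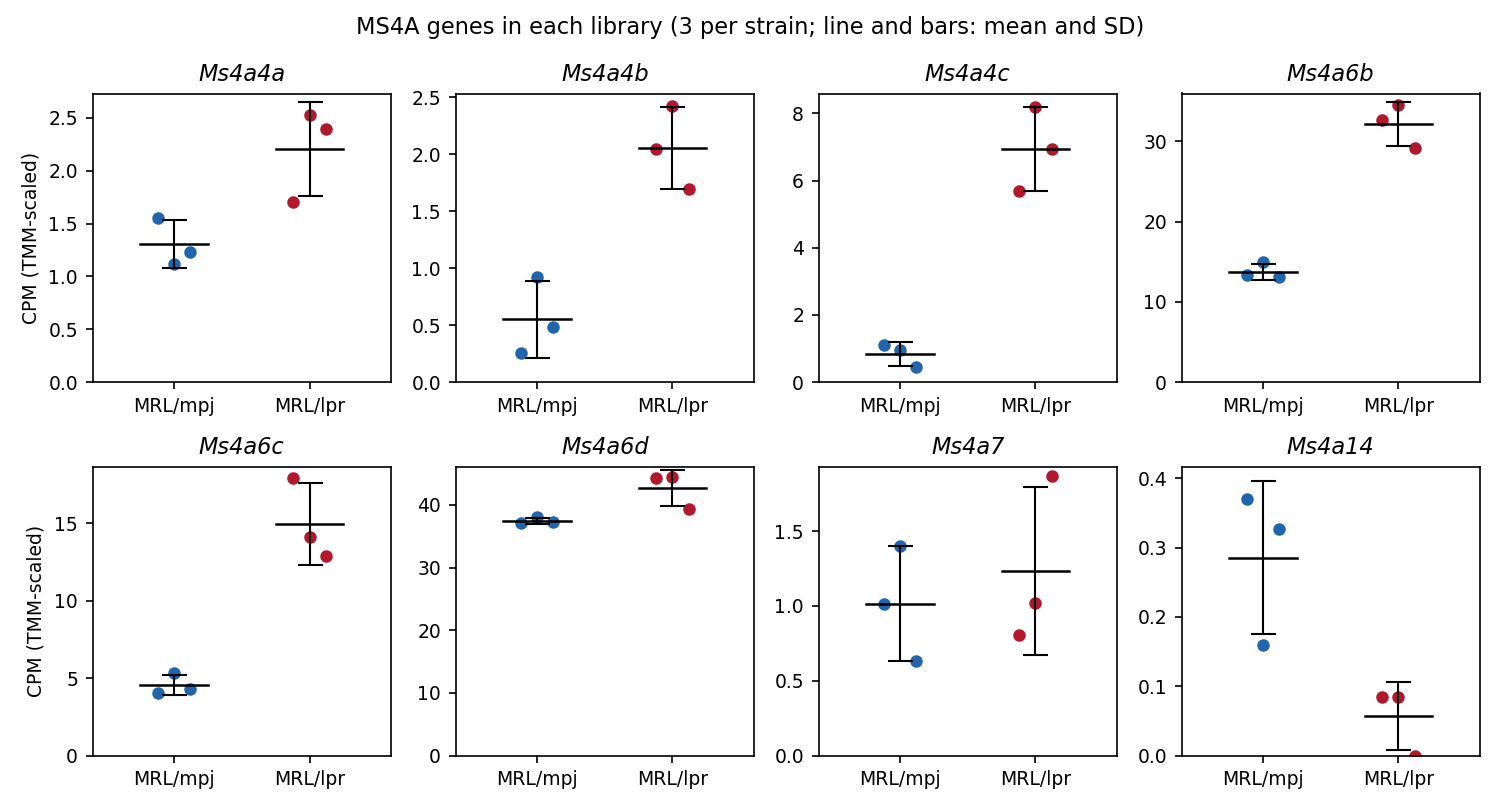
CPM (TMM-scaled, vertical axis from 0) of the 8 genes in the 3 MRL/mpj and the 3 MRL/lpr libraries. Each point is a library, and the line and bars are the mean and SD. Ms4a4b, Ms4a4c, Ms4a6b and Ms4a6c separate by strain, Ms4a6d differs little, and the points of Ms4a7 mix.

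Ms4a4c (ENSMUSG00000024675, chr19:11404770-11427246, plus strand) had the largest difference of the members tested. It had 267, 386 and 290 counts in MRL/lpr replicates 1 to 3 and 57, 48 and 23 counts in MRL/mpj replicates 1 to 3. Its lowest MRL/lpr library was thus well above its highest MRL/mpj library. The level was 6.94 ± 1.26 CPM (SD, n = 3) in MRL/lpr and 0.837 ± 0.350 CPM (SD, n = 3) in MRL/mpj. The log2 fold change was 3.05 (SE 0.35, 95% confidence interval 2.27 to 3.83, adjusted p = 0.000259 from edgeR). It remained past the threshold in all 16 alternative settings. Of its 100-base words 1.66% occurred in transcripts of other genes, and of those of Ms4a4b 0.473%.

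Ms4a6c (ENSMUSG00000079419, chr19:11469366-11482192, plus strand), the monocyte-associated gene of the Ms4a6 branch, was also higher. Its counts were 842, 664 and 537 in MRL/lpr against 208, 265 and 225 in MRL/mpj. The groups did not overlap, and the levels were 15.0 ± 2.64 CPM against 4.56 ± 0.658 CPM (SD, n = 3 each). The log2 fold change was 1.71 (SE 0.18, 95% confidence interval 1.30 to 2.12, adjusted p = 0.000166 from edgeR). BE692007, a processed transcript on the opposite strand at chr19:11470166-11484578, covers much of the same sequence, and 45.8% of the 100-base words of Ms4a6c also occur in transcripts of other genes. Without overlapping antisense genes that share fell to 0.513%. BE692007 was chosen for this after its values were seen, and its counts were 257, 209 and 179 in MRL/lpr and 134, 126 and 72 in MRL/mpj (log2 fold change 1.12, SE 0.29, adjusted p = 0.0219 from edgeR). The library kit keeps strand, but the strand setting of the authors' counting is not given in the sources used here, so counts of the pair may be mixed.

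Ms4a6b (ENSMUSG00000024677, chr19:11516512-11531256, plus strand) had the smallest adjusted p of the members. It had 1536, 1626 and 1219 counts in MRL/lpr against 684, 746 and 682 in MRL/mpj. The strains were far apart relative to their spread, at 32.1 ± 2.73 CPM and 13.8 ± 0.994 CPM (SD, n = 3 each). The log2 fold change was 1.22 (SE 0.11, 95% confidence interval 0.98 to 1.47, adjusted p = 5.6e-05 from edgeR). None of its 100-base words occurred in transcripts of other genes.

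Ms4a4b (ENSMUSG00000056290, chr19:11443553-11467055, plus strand), the gene known from T cells, was lower in abundance. Its counts were 96, 114 and 71 in MRL/lpr against 13, 46 and 25 in MRL/mpj. The groups did not overlap, but the MRL/mpj libraries differed widely among themselves. The log2 fold change was 1.895 (SE 0.48, 95% confidence interval 0.81 to 2.98, adjusted p = 0.0214 from edgeR). The call was lost without MRL/lpr replicate 1 (adjusted p = 0.0544), MRL/lpr replicate 2 (0.0736), MRL/mpj replicate 1 (0.054) or MRL/mpj replicate 3 (0.0772), and also with limma on log2 FPKM (0.135) and in a test against the fold-change minimum (0.295).

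Ms4a6d (ENSMUSG00000024679, chr19:11586604-11604849, minus strand), a macrophage gene, was the most abundant member and showed the smallest difference. Its counts were 2086, 2091 and 1646 in MRL/lpr against 1910, 1901 and 1937 in MRL/mpj. After scaling, each MRL/lpr library lay above each MRL/mpj library, at 42.7 ± 2.89 CPM against 37.5 ± 0.480 CPM (SD, n = 3 each). The log2 fold change was 0.19 (SE 0.09, 95% confidence interval -0.0025 to 0.38, adjusted p = 0.163 from edgeR), so any increase above 0.38 lies outside the interval. Without MRL/lpr replicate 3 the value was 0.25 and passed (adjusted p = 0.0422), which brought the number of members higher in MRL/lpr to 5.

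Ms4a4a (ENSMUSG00000101389, chr19:11375523-11392790, plus strand), the partner of Dectin-1, had 80, 119 and 100 counts in MRL/lpr against 80, 56 and 64 in MRL/mpj. Its scaled levels did not overlap, at 2.21 ± 0.443 CPM and 1.30 ± 0.227 CPM (SD, n = 3 each), but it gave no call. The log2 fold change was 0.76 (SE 0.31, 95% confidence interval 0.06 to 1.46, adjusted p = 0.126 from edgeR). Ms4a7 (ENSMUSG00000024672, chr19:11321039-11336146, minus strand), the border macrophage marker, had 38, 48 and 78 counts in MRL/lpr against 52, 70 and 33 in MRL/mpj. These groups overlapped, and the log2 fold change of 0.28 (SE 0.47, adjusted p = 0.75 from edgeR) turned to -0.15 without MRL/lpr replicate 3.

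Ms4a14 (ENSMUSG00000099398, chr19:11301249-11314454, minus strand) ran the other way at very low depth. It had 4, 4 and 0 counts in MRL/lpr against 19, 8 and 17 in MRL/mpj, and the count filter removed it. All MRL/lpr libraries were below all MRL/mpj libraries, as for 19.4% of all genes tested. Fitted without a filter, its log2 fold change was -2.27 (SE 1.45, adjusted p = 0.386 from edgeR), and no difference was detectable at this depth.

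**Figure D2:**
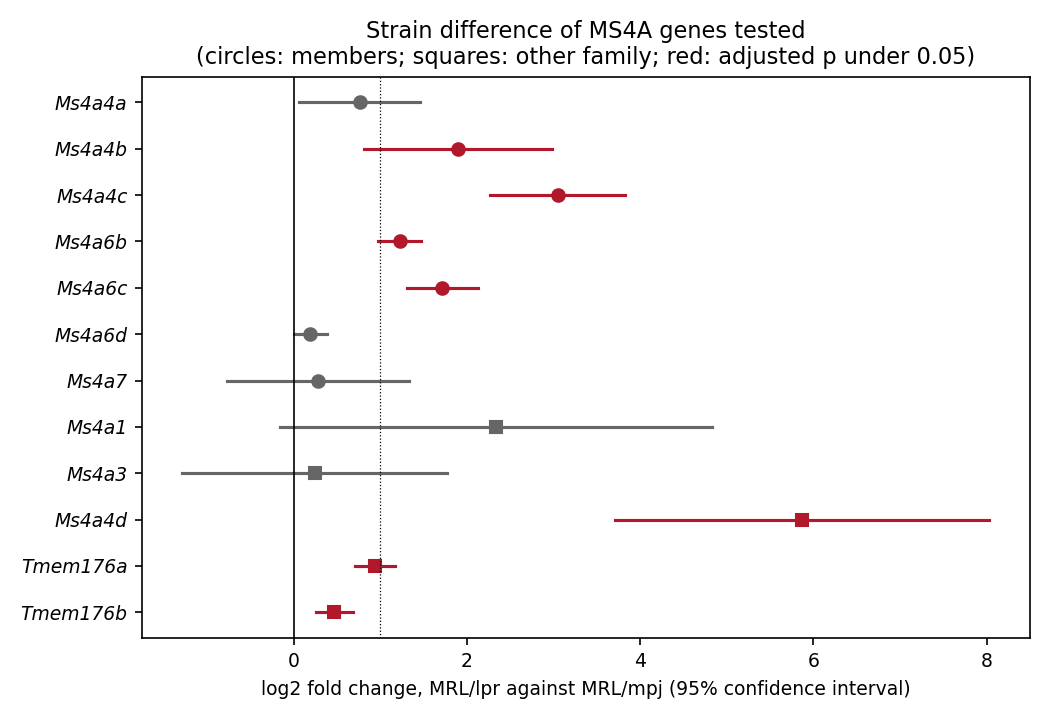
Log2 fold changes of MRL/lpr against MRL/mpj (horizontal axis) for the members tested (circles) and the other MS4A family genes tested (squares), with 95% confidence intervals. Red marks an adjusted p under 0.05 and the dotted line a log2 fold change of 1. The interval of Ms4a4c, from 2.27 to 3.83, lies above that of Ms4a6d, which ends at 0.38.

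The unequal changes altered the make-up of MS4A counts. These counts are not scaled by gene length, so a longer gene takes a larger share than its number of transcripts would give. The annotated exons of Ms4a6b cover 4485 bases and those of Ms4a6d 1735. The 8 genes summed to 105, 107 and 94.3 CPM in the MRL/lpr libraries and to 58.8, 62.8 and 57.8 CPM in the MRL/mpj libraries. Ms4a6d made up 42.2%, 41.4% and 41.8% of that sum in MRL/lpr and 63.2%, 60.5% and 64.4% in MRL/mpj. The share of Ms4a6b was 31.0%, 32.2% and 30.9% against 22.6%, 23.8% and 22.7%. Both shares were nearly constant within a strain. Ms4a4c went from 1.89%, 1.53% and 0.765% of the sum in MRL/mpj to 5.39%, 7.64% and 7.36% in MRL/lpr.

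**Figure D3:**
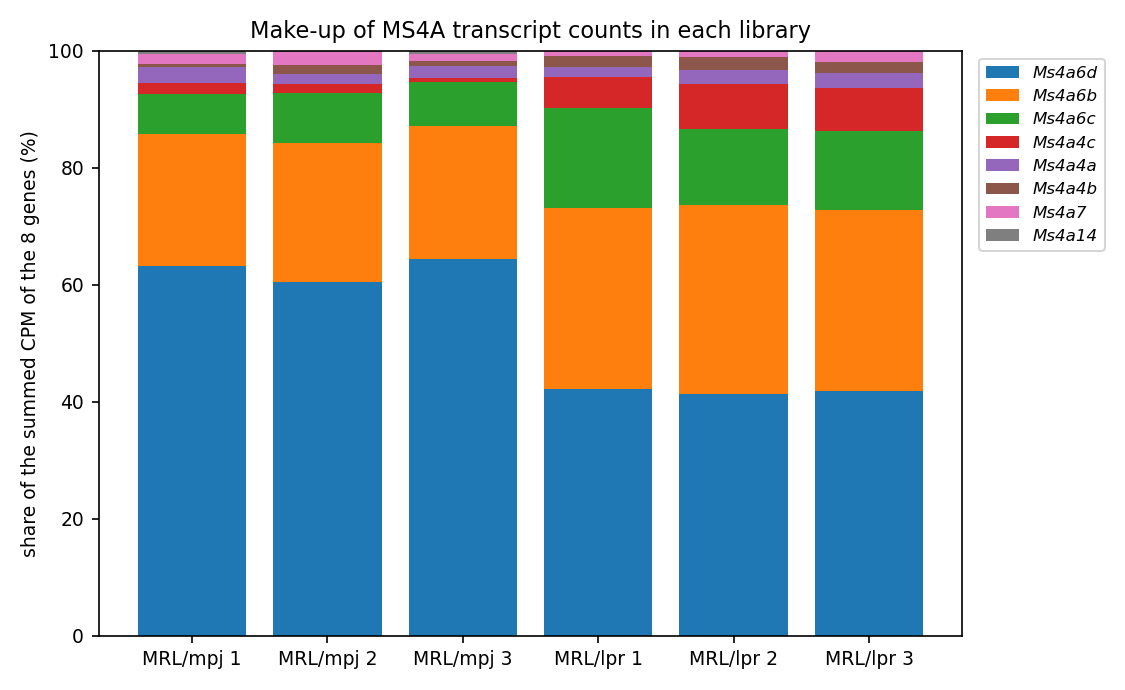
Share of the summed CPM of the 8 genes (vertical axis, percent) that each gene took in each library. Ms4a6d takes 60.5% to 64.4% in the MRL/mpj libraries and 41.4% to 42.2% in the MRL/lpr libraries.

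Ratios within a library do not depend on how the libraries were scaled. The ratio of Ms4a6b to Ms4a6d counts was 0.736, 0.778 and 0.741 in the MRL/lpr libraries and 0.358, 0.392 and 0.352 in the MRL/mpj libraries, a log2 difference of 1.03. The ratio of Ms4a6c to Ms4a6d was 0.404, 0.318 and 0.326 against 0.109, 0.139 and 0.116, a log2 difference of 1.52. For Ms4a4c to Ms4a6d the log2 difference was 2.95, for Ms4a6c to Ms4a6b it was 0.49 and for Ms4a4c to Ms4a6c it was 1.43. The libraries of the strains did not overlap in any of these 5 ratios. The two-sided exact permutation p was 0.1 for each, the smallest that 3 libraries against 3 allow, and 0.14 after Benjamini-Hochberg adjustment over the 7 ratios compared. The ratio of Ms4a4a to Ms4a6d (log2 difference 0.57, exact permutation p = 0.2, adjusted 0.233) and that of Ms4a4b to Ms4a4c (-1.06, exact permutation p = 0.4, adjusted 0.4) overlapped between strains.

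Levels of different genes were compared per length, as FPKM. In MRL/mpj microglia the order was Ms4a6d at 20.1 ± 0.264 FPKM (SD, n = 3), Ms4a6b at 2.85 ± 0.209, Ms4a6c at 2.06 ± 0.304, Ms4a4a at 1.44 ± 0.244, Ms4a4c at 0.440 ± 0.185, Ms4a7 at 0.210 ± 0.080, Ms4a14 at 0.060 ± 0.0265 and Ms4a4b at 0.0567 ± 0.0306. Neighbours whose libraries overlapped were Ms4a4c with Ms4a7 and Ms4a14 with Ms4a4b. In MRL/lpr microglia Ms4a6d stood at 21.1 ± 2.07 FPKM, Ms4a6c at 6.25 ± 1.25 and Ms4a6b at 6.13 ± 0.694 (SD, n = 3 each), and these last genes overlapped. Ms4a4c, at 3.38 ± 0.634 FPKM, stood above Ms4a4a, at 2.24 ± 0.429 FPKM, and no library of one overlapped the other. Ms4a7 at 0.227 ± 0.1002 and Ms4a4b at 0.193 ± 0.0404 FPKM overlapped, and Ms4a14 was last at 0.0133 ± 0.0115 FPKM. The annotated exons of Ms4a4b cover 8780 bases, against 1751 for Ms4a4c, and a longer gene gets a lower FPKM for the same counts.

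By Pearson correlation of log2 CPM over the 6 libraries, the genes outside the family most like Ms4a6d were Top1, Smc6 and Ccn1 (r of 0.998 each). Those most like Ms4a6b were Plin2, Slfn4 and Gm8752 (r of 0.99983, 0.99889 and 0.99873). All points share the split by strain, and 257 genes reached an r of 0.95 with Ms4a6d and 1088 with Ms4a6b.

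The rest of the family was sparse. Of 12 other listed family genes in the matrix, 4 (Ms4a5, Ms4a13, Ms4a15 and Ms4a18) had 0 counts in every library and 5 could be tested, of which 3 were higher. Ms4a12, which was not on the list, also had 0 counts in every library. Ms4a4d (ENSMUSG00000024678, chr19:11536801-11558467, plus strand), 85.7% identical to Ms4a4c in coding sequence, had 106, 84 and 42 counts in MRL/lpr against 0, 4 and 0 in MRL/mpj. It was nearly absent from MRL/mpj, and its fitted log2 fold change of 5.87 (SE 0.96, adjusted p = 0.0022 from edgeR) ranged from 3.16 to 9.33 over the alternatives. Tmem176a and Tmem176b, related genes on another chromosome that are expressed in myeloid cells, were also higher, with log2 fold changes of 0.94 (adjusted p = 0.000229) and 0.47 (adjusted p = 0.00792, both from edgeR), the latter not past the threshold without MRL/lpr replicate 3 (adjusted p = 0.0578). Ms4a1 had 16, 18 and 21 counts in MRL/lpr and 0, 8 and 4 counts in MRL/mpj (log2 fold change 2.34, adjusted p = 0.187 from edgeR). Ms4a3, a gene of granulocyte precursors, had a log2 fold change of 0.24 (adjusted p = 0.856 from edgeR).

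Receptors and enzymes tied to MS4A proteins did not move as a block. Of 8 such genes, 2 were higher and 1 was lower, and their median log2 fold change was 0.10. Clec7a, which encodes Dectin-1, had 1048, 883 and 738 counts in MRL/lpr against 312, 315 and 246 in MRL/mpj (log2 fold change 1.78, SE 0.16, adjusted p = 6.05e-05 from edgeR). Its kinase gene Syk was higher by 0.38 on the log2 scale (adjusted p = 0.00163), while the adaptor gene Tyrobp fell by 0.35 on the log2 scale (adjusted p = 0.0177, both from edgeR). The call of Tyrobp was lost without MRL/lpr replicate 1 or 2 or MRL/mpj replicate 1 or 2, at adjusted p between 0.0672 and 0.0833 from edgeR. Trem2 had 27055, 25385 and 28720 counts against 32246, 29553 and 28675 (log2 fold change 0.03, 95% confidence interval -0.19 to 0.24, adjusted p = 0.889 from edgeR). The sheddase genes Adam10 and Adam17 (log2 fold changes -0.13 and -0.02), the adaptor gene Fcer1g (0.18) and Tnfrsf18 (0.94) gave no call, and the signs of Trem2, Adam10 and Adam17 changed in some alternatives.

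The members lie within a stretch that holds other genes. Among 28 protein-coding genes without an Ms4a symbol and within 500 kb of the members, 13 could be tested, 5 were higher and 0 were lower, and the median log2 fold change was 0.24. Gm8369 (chr19:11485938-11512577, plus strand), between Ms4a6c and Ms4a6b, had 40, 13 and 37 counts in MRL/lpr against 0, 1 and 0 in MRL/mpj. Set against 3 counts in each MRL/mpj library, it was at least 11.4-fold higher (adjusted p = 0.00597 from edgeR). Cd6, a T cell surface gene at the far edge of the stretch, had 132, 133 and 107 counts against 3, 24 and 27 (log2 fold change 2.95, adjusted p = 0.00738 from edgeR). Slc15a3, Tmem132a and Patl1 were higher by 0.81, 0.51 and 0.36 on the log2 scale, edgeR giving adjusted p of 1.94e-05, 0.00451 and 0.0182. In chromosome order the members run Ms4a14, Ms4a7, Ms4a4a, Ms4a4c, Ms4a4b, Ms4a6c, Ms4a6b and Ms4a6d, so the 4 members called higher stand next to one another, with Gm8369 among them. Fas, the gene of the lpr mutation, lies on the same chromosome, 22856 kb from the middle of the members. Sequence differences between the strains along this chromosome were not tested.

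**Figure D4:**
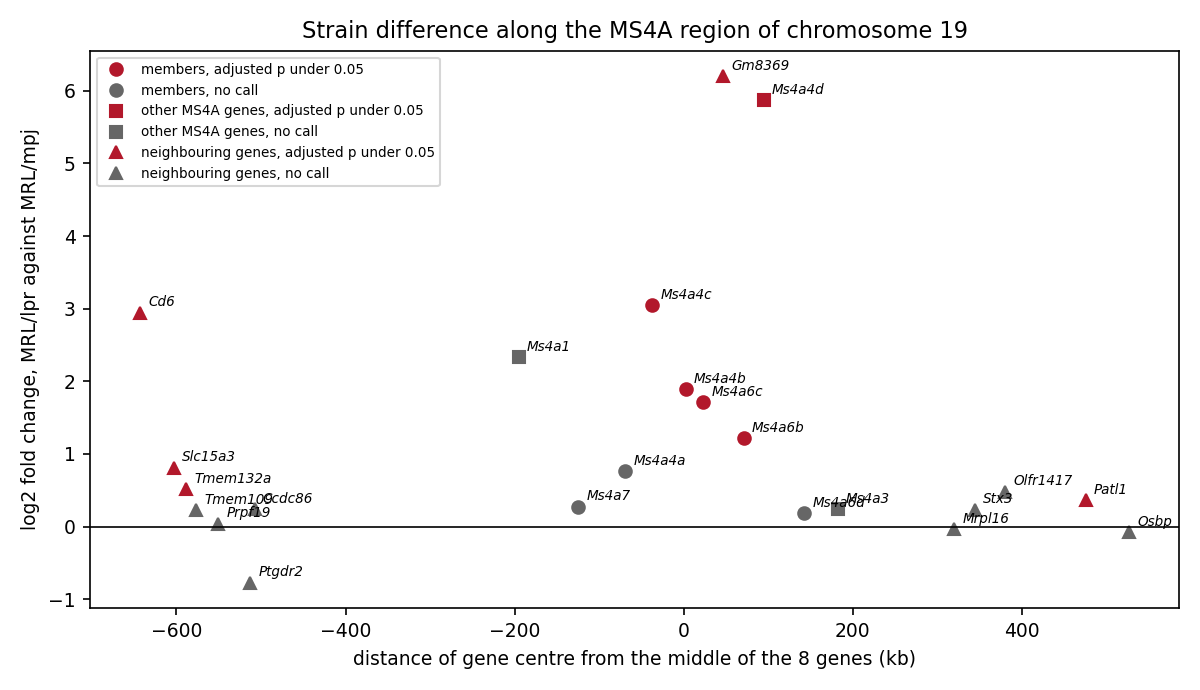
Log2 fold change of MRL/lpr against MRL/mpj (vertical axis) against the distance of each tested gene's centre from the middle of the 8 members (horizontal axis, kb). Circles are members, squares other MS4A genes, triangles neighbouring genes, and red marks an adjusted p under 0.05. Gm8369, Ms4a4d, Ms4a4c, Ms4a4b, Ms4a6c and Ms4a6b stand close together, with Ms4a7 and Ms4a6d on either side.

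Genes of the type I interferon response moved in the same comparison. Of 30 listed genes, 29 were higher and 0 were lower, with a median log2 fold change of 1.59, and the list summed to 1471 to 1824 CPM in MRL/lpr and 575 to 590 CPM in MRL/mpj. Stat2 and Parp14 were higher by 1.21 and 1.16 on the log2 scale (adjusted p of 0.000126 and 1.27e-05 from edgeR). Ifit2 was the exception, with 10474, 10618 and 293 counts in MRL/lpr against 1312, 1377 and 1437 (adjusted p = 0.283 from edgeR). Without MRL/lpr replicate 3 it passed, at a log2 fold change of 3.06 (adjusted p = 3.74e-08). The part of this response in the MS4A values was not tested.

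Markers of lymphocytes, in which Ms4a4b is known to be expressed, moved as well. Of 12 T cell genes, 8 were higher and 1 was lower, with a median log2 fold change of 1.80. Of the T cell receptor's CD3 chains, named after their values were seen, Cd3e and Cd3g were higher and Cd3d gave no call. Cd3e had 103, 92 and 120 counts in MRL/lpr against 2, 0 and 9 in MRL/mpj. Cd3g had 97, 103 and 153 against 10, 19 and 41. Cd3d had 100, 76 and 99 against 64, 30 and 40 (log2 fold change 1.22, adjusted p = 0.0501 from edgeR). Lck and Cd8a were higher by 1.72 and 2.90 on the log2 scale (adjusted p of 0.000468 and 0.000416 from edgeR), and Cd5 had a value of 0.62 (adjusted p = 0.215 from edgeR). The list summed to 92.1 to 104 CPM in MRL/lpr and 95.5 to 99.6 CPM in MRL/mpj, because Il7r, which was lower, with a log2 fold change of -0.41 (adjusted p = 0.00705 from edgeR), held most of it. Without Il7r, a choice made after its values were seen, the sums were 25.5 to 32.4 CPM and 8.30 to 9.49 CPM. Of 8 NK cell genes, 5 were higher and 0 lower, with sums of 18.7 to 22.8 CPM and 9.80 to 10.4 CPM. Gzma, Gzmb and Nkg7, genes of cytotoxic granules, were higher by 1.70, 2.59 and 2.63 on the log2 scale (adjusted p of 0.00119, 0.000333 and 0.000211 from edgeR), and Klrd1 had a value of -0.38 (adjusted p = 0.354). Klrb1c and Ncr1 of the same list, named after their values were seen, gave no call either. Klrb1c had 23, 0 and 0 counts in MRL/lpr against 75, 16 and 82 in MRL/mpj (log2 fold change -2.74, adjusted p = 0.232 from edgeR). Ncr1 had 27, 25 and 0 against 7, 21 and 0. Of 8 B cell genes, 5 were tested and 0 were called, although 2 had an unadjusted p under 0.05, and DESeq2 called 1. Cd79b and Cd22 had log2 fold changes of -0.30 and 0.15, and the list summed to 14.3 to 15.6 CPM in MRL/lpr and 11.7 to 15.1 CPM in MRL/mpj. The part of lymphocyte RNA in the values of Ms4a4b, or of any other member, was not tested.

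Among 10 monocyte genes, 4 were higher and 1 was lower, and the list summed to 605 to 706 CPM in MRL/lpr and 594 to 618 CPM in MRL/mpj. Fn1, Cd177 and Ly6c2, the most abundant genes of that list beside Chil3, gave no call at log2 fold changes of 0.09, 0.38 and 0.39, and Chil3 was lower, with a log2 fold change of -1.59 (adjusted p = 5.09e-05 from edgeR). Without MRL/lpr replicate 1, Cd177 and Ly6c2 passed, at 0.55 and 0.57 (adjusted p of 0.0433 and 0.0182 from edgeR), while 2 genes of the list were higher without MRL/lpr replicate 2 or 3. Among 10 genes of border macrophages, the cells that Ms4a7 marks, 1 was higher and 3 were lower, with sums of 477 to 518 CPM against 786 to 810 CPM. Stab1 held most of these sums, and without it, a choice made after its values were seen, they were 63.1 to 65.4 CPM against 60.9 to 68.7 CPM, which overlap. Stab1, Mrc1 and Cbr2 were lower, with log2 fold changes of -0.78, -0.39 and -1.68 (adjusted p of 2.44e-05, 0.0443 and 0.00022 from edgeR), and F13a1 had a value of 0.21. The call of Mrc1 was lost whichever library was left out (adjusted p of 0.0614 to 0.159). The gene that rose was Siglec1, a macrophage receptor that interferon is known to raise. Of 12 homeostatic microglia genes, 1 was higher and 5 were lower, with a median log2 fold change of -0.31. Cst3 was lower, with a log2 fold change of -0.40 (adjusted p = 0.00296 from edgeR), and Csf1r and Tmem119 gave values of 0.07 and -0.05 with no call, although Tmem119 was lower without MRL/lpr replicate 3 (log2 fold change -0.22, adjusted p = 0.00367 from edgeR), when 8 of the list were lower. No defining marker of these 3 lists was at 0 in all libraries of a strain, and the part of these cells in the MS4A values was not tested.

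**Figure D5:**
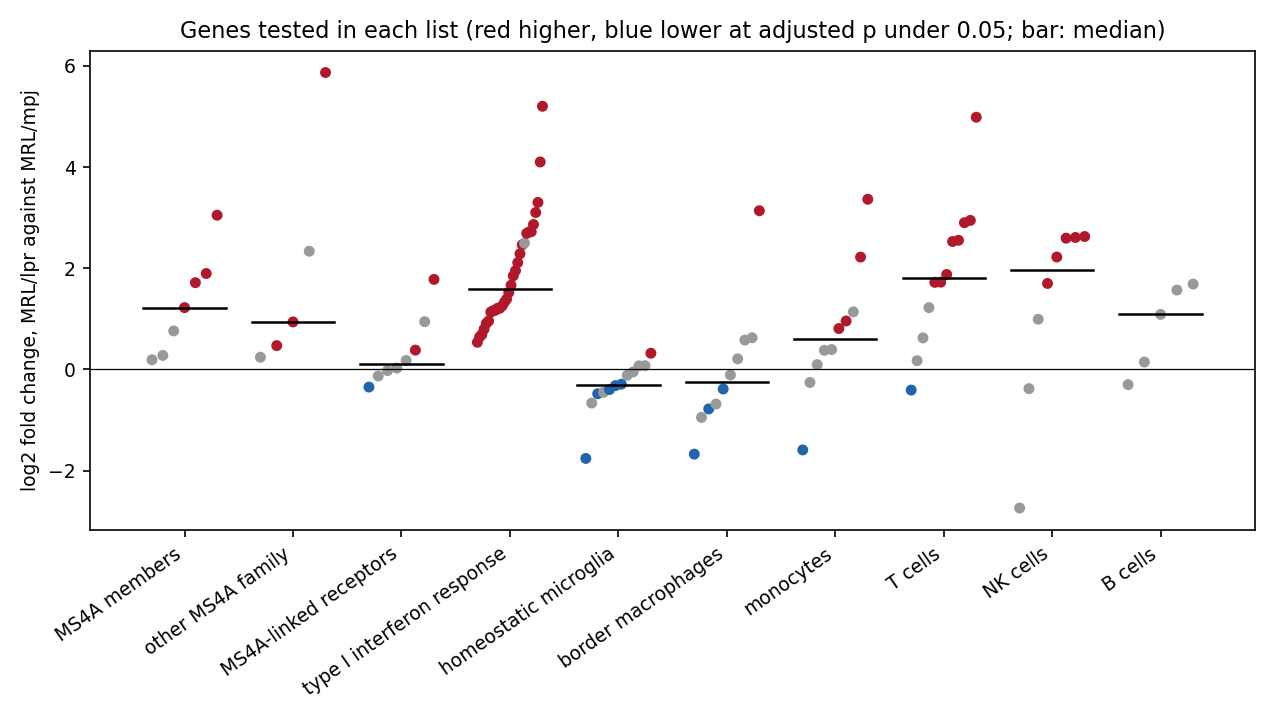
Log2 fold changes of MRL/lpr against MRL/mpj (vertical axis) of the genes tested in each list. Each point is a gene, the bar is the list's median, red marks genes higher and blue genes lower at an adjusted p under 0.05. The medians of the MS4A members, the interferon response, T cells and NK cells are 1.22, 1.59, 1.80 and 1.96, and that of homeostatic microglia is -0.31.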

How the data were processed

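CD11b-selected brain cells of MRL/lpr and MRL/mpj mice were profiled by RNA-seq in 3 libraries each, grouped by their titles. Raw gene counts, as whole numbers, were deposited in a single matrix. The authors also deposited FPKM for each library, scaled by gene length and depth. Per the submitters' processing notes, cutadapt 1.9.3, HISAT2 2.0.4, Cufflinks, Cuffdiff 2.2.1 and GRCm38 were used. The counting tool, its strand setting and its annotation are not given in the sources used here. GENCODE M21 (GRCm38) gave symbols and coordinates for 55141 of 55401 identifiers (the other 260 held 8124 to 16804 counts per library). Promoters came from RefSeq on GRCm38.p6, which held 7 of the 8 members.

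Counts were tested with edgeR 4.0.16 in R 4.3.3 (filterByExpr at 10 counts and 15 in total, TMM, robust quasi-likelihood, no covariates), with Benjamini-Hochberg adjustment over 19554 genes. The common biological coefficient of variation was 0.26. Ratios were compared with two-sided exact permutation tests on log2 values. Intervals are at 95%, and 3 counts or fewer were taken as the floor. The alternatives were DESeq2 1.42.0, RLE normalization, library size only, no count filter, at least 10 counts in each library, counts divided by 4, dispersions that were not robust, glmTreat against a log2 fold change of 1, limma 3.58.1 on log2(FPKM + 0.1) for genes with a mean of at least 0.1, a replicate block, and each library left out. The steps were tested on simulated data. Sequences were compared with Biopython 1.88.

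Named are all members, family genes and linked receptors tested, up to 4 of the most abundant genes of each marker list, up to 4 neighbours differentially expressed, and the 3 genes most correlated with 2 members. Other neighbours called were named after their values were seen. Some genes that this rule covers are not reported here. The members, lists and tests were chosen with earlier results of these data known.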

Additional observations from a re-analysis of the deposited data

How the results depend on the processing

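Across 16 alternatives, 103 of the 112 values of the members kept their direction and their side of the threshold, 7 no longer passed, 1 newly passed and 1 changed sign. Ms4a4c and Ms4a6c passed in all 16. Ms4a6b missed only against the fold-change minimum (glmTreat, adjusted p = 0.197), and Ms4a4b missed in 6. The number of members higher, 4, became 2 with glmTreat, as did the number differentially expressed, and leaving out each library gave 3 to 5 and 3 to 4. Scaling by library size only moved the median log2 fold change of all genes from -0.01 to -0.13 and the share of higher among called genes from 55.1% to 36.9% (limma on FPKM, -0.11 and 39.7%). The members' values were then 0.63 for Ms4a4a, 1.78 for Ms4a4b, 2.93 for Ms4a4c, 1.10 for Ms4a6b, 1.59 for Ms4a6c, 0.07 for Ms4a6d and 0.14 for Ms4a7. The replicate numbers share only a number (correlations of deviations of same-numbered libraries of -0.041, -0.020 and -0.033). With the replicate block, 4 members remained called, with log2 fold changes of 2.03 for Ms4a4b, 3.11 for Ms4a4c, 1.22 for Ms4a6b and 1.71 for Ms4a6c, while the genes called fell to 1754 higher and 1309 lower. The block left 0 linked receptors lower and 0 homeostatic microglia genes higher, and gave Adam17 a log2 fold change of 0.0093.

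With glmTreat the numbers higher were 1 for the other family, 1 for linked receptors, 0 for homeostatic microglia, 1 for monocytes, 3 for T cells, 15 for the interferon response and 1 for the region, and the numbers lower were 0 for linked receptors, 1 for homeostatic microglia, 1 for border macrophages and 0 for T cells. Library size only and limma each left 0 homeostatic microglia genes higher, and limma left 2 monocyte genes and 3 region genes. At least 10 counts in each library left 3 region genes and gave 2 border macrophage genes higher, and counts divided by 4 also gave 2 of the latter. DESeq2, at least 10 counts in each library, counts divided by 4 and limma each called 1 B cell gene higher. Leaving out each library gave 0 to 1 linked receptors lower, 0 to 1 homeostatic microglia genes higher and 5 to 8 lower (8 without MRL/lpr replicate 3), 1 to 2 border macrophage genes higher, 2 to 5 monocyte genes higher, 0 to 1 NK cell genes lower and 0 to 1 B cell genes higher.

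Log2 fold changes that changed sign were all of genes with no call. Library size only gave -0.10 for Trem2, -0.058 for Csf1r and -0.032 for Fn1. Limma on log2 FPKM gave -0.10 for Trem2, -0.062 for Csf1r and -0.029 for Fn1. Leaving out each library gave -0.15 to 0.57 for Ms4a7, -0.11 to 0.52 for Ms4a3, -0.078 to 0.097 for Trem2, -0.30 to 0.10 for Adam10, -0.22 to 0.087 for Adam17, -0.063 to 0.14 for Csf1r, -0.22 to 0.032 for Tmem119 and -0.13 to 0.39 for Cd22, and the omission of MRL/lpr replicate 3 turned the sign of Ms4a7, Ms4a3, Trem2, Adam10, Adam17 and Csf1r. The causes were not tested. Of the other 43 named genes, 620 of 676 values kept direction and call. Depth limits Ms4a14, Ms4a4d and Gm8369, whose counts in one strain were near 0. Single outlying libraries were examined only by leaving out each library, with no separate outlier test.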
